A study of Mus musculus with 8 samples.

Results

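The genes described here form the core of the major histocompatibility complex (MHC) class I antigen presentation pathway. They are 10 genes, H2-K1, H2-D1, B2m, Tap1, Tap2, Tapbp, Nlrc5, Psmb8, Psmb9 and Psmb10, out of 18194 genes named on the array. They were chosen by name, with earlier results of these data known. Every probe set whose platform symbol holds exactly 1 of them was taken, which gave 29 of 45037 probe sets other than controls. Of these 29, 2 also list other genes (1 of H2-D1 with H2-Q2 and Gm38417, 1 of H2-K1 with H2-Q5). The test covered the brighter 50% of probe sets, and 22 of the 29 lay within it, at least 1 for each gene. The other 7 were too dim: 3 of H2-D1, 3 of Tap1 and 1 of Psmb8. A further probe set, 1424948_x_at, lists both H2-K1 and H2-D1. It therefore lies outside the 29 and is given apart from them.

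The samples were primary hepatocytes, the parenchymal cells of the liver, in 4 groups of 2 arrays each, labelled A and B. Cells from wild-type mice (WT) or from mice lacking transglutaminase 2 (KO), both of the strain label C57BL6/129SVJ, were cultured for 15 h with 0 or 100 mM ethanol. Transglutaminase 2, the product of Tgm2, is an enzyme that crosslinks proteins. The labels give the KO as mice without it and name no tissue limit or founder line. The labels do not state whether arrays A and B came from separate mice or cultures, so the p-values below describe the spread among these arrays and may hold technical variation alone. The labels used here give neither age nor sex.

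MHC class I molecules show fragments of a cell's own proteins on its surface, where cytotoxic T cells inspect them. The proteasome cuts the proteins, and in its inducible form, the immunoproteasome, the catalytic subunits encoded by Psmb8, Psmb9 and Psmb10 replace those encoded by Psmb5, Psmb6 and Psmb7. The transporter made of Tap1 and Tap2 carries the fragments into the endoplasmic reticulum, and tapasin (Tapbp) holds an empty class I molecule beside it. There the heavy chain (H2-K1 or H2-D1 among the classical ones) and the light chain beta-2 microglobulin (B2m) close around a fragment and travel to the surface. Nlrc5 is a transcriptional activator of these genes, and interferon, acting through STAT and IRF factors, and NF-kappaB raise their transcription. Hepatocytes at rest are known for low class I levels that rise in inflammation.

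The start regions of the members are shown first. The heavy chain, light chain and transporter genes are textbook cases of promoters with interferon and NF-kappaB elements. Any link between such elements and the levels given below was not tested. The table of RefSeq start regions (build GRCm38.p6) held 8 of the 10 members, and Tap2 and Nlrc5 had no entry. The 250 bases before the annotated start are printed 5′ to 3′ on the gene's own strand, in lower case, with matches to the searched motifs in capitals. The regions lie at chr17:35262844-35263093 (plus strand) for H2-D1, chr2:122147437-122147686 (plus strand) for B2m, chr17:34187306-34187555 (plus strand) for Tap1 and chr8:105938393-105938642 (minus strand) for Psmb10.
H2-D1: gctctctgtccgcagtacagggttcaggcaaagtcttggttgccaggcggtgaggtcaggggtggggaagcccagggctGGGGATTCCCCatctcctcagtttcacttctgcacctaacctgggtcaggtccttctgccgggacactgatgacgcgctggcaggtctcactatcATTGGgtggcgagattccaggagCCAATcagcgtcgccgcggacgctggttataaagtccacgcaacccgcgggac
B2m: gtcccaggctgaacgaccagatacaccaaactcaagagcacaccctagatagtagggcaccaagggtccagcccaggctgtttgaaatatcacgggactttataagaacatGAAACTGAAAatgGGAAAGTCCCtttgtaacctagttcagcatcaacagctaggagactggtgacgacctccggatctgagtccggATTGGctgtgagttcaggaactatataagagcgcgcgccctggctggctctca
Tap1: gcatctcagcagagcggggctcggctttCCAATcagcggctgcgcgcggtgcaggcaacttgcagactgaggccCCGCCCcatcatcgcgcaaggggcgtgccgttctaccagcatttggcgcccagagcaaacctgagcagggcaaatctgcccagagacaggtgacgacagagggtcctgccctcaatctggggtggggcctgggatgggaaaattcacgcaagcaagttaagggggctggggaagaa
Psmb10: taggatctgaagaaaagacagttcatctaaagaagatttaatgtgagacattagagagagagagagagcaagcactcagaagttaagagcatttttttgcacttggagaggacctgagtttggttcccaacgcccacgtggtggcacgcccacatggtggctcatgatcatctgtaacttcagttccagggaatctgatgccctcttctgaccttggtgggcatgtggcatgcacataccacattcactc

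Motifs were searched on both strands: the core of the interferon-stimulated response element (ISRE), written GAAA, any 2 bases, GAAA, the STAT element GAS, TTCNNNGAA, the GC box, GGGCGG, the CCAAT box, CCAAT, and the kB site of NF-kappaB. The kB site was found in 3 of the 8 member windows, those of H2-K1, H2-D1 and B2m, and in 3.9% of the 32851 windows of the same length in the table. In H2-D1 it lay from -171 to -161 before the start, where overlapping matches on both strands are counted together, in H2-K1 from -111 to -101, and in B2m from -126 to -117. The first listed start of each gene was used. For H2-K1, on the minus strand, it is 34000347, inside the annotated gene, which reaches 34000619. The ISRE core, in exactly the letters searched, was found in B2m alone among the members, from -139 to -130, beside the kB site, and in 2.98% of all windows. The H2-K1 and H2-D1 windows both hold agtttcacttct after the kB site. This stretch holds GAAA on the other strand, without another GAAA 2 bases away, so it was not a match. Looser spellings of the ISRE were not searched, so a window without a match may still hold such an element. The GAS was found in Psmb8 alone, from -97 to -89, and in 7.02% of all windows. Tap1 and Psmb9 are neighbours read in opposite directions. Their starts lie 226 bases apart and their windows share 225 bases, so the Tap1 sequence above is also, on the other strand, nearly all of the Psmb9 window. It holds 1 GC box and 1 CCAAT box. The GC box, an element bound by Sp1, was found in the windows of Tap1, Tapbp and Psmb9 and in 32.7% of all windows. The CCAAT box was found in 6 of 8 member windows and in 33.8% of all windows. The Psmb10 window held none of the 5 motifs. A match describes letters in this window only. Of the 8 genes, 6 lie on chromosome 17.

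Values are the deposited probe set intensities after quantile normalisation, which gives the 8 arrays the same distribution, so each value says where a probe set stands relative to the rest of its array. Before this step the arrays differed in brightness. Their trimmed means (2% of probe sets left out at each end) were 113 and 117 in KO without ethanol and 117 on ethanol KO array A, against 228 to 341 on the other 5 arrays. A higher member in KO is therefore always meant relative to the other probe sets of the array. In the deposited values without scaling, the untreated KO arrays lay below both WT arrays for 9 of the 10 members and overlapped them for H2-K1, and with ethanol the groups overlapped for 9 members and KO lay below WT for Psmb10. Of all tested probe sets, 89.7% lay below WT in the first comparison, and in the second 78.1% overlapped and 14.3% lay below. Log2 differences are of log2(normalised intensity + 16), which understates the change of dim probe sets, with the standard error (SE) of limma's fit to all probe sets. A difference was called at a limma Benjamini-Hochberg adjusted p under 0.05. Tgm2 itself read 16700 to 16800 on the WT arrays and 368 to 704 on the KO arrays. Array B of WT with ethanol and array B of KO with ethanol carry a treatment text that describes a control incubation, while their titles and source names give 100 mM. The titles were followed here. With these arrays taken as untreated, 16 of the 35 called differences described below were still called, and the values of the main ones that were not are given beside them.

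Without ethanol, most of the class I genes stood higher in KO than in WT hepatocytes. On the brightest probe set of each gene, 7 of 10 were called higher (H2-K1, H2-D1, B2m, Tap1, Tap2, Tapbp and Psmb8), Psmb10 was called lower, and Nlrc5 and Psmb9 did not pass the test. These differences were between 0.34 and 0.62 on the log2 scale. Over the 22 tested probe sets, 12 were called higher and 1 lower. Of all 19814 tested probe sets, 15.3% were called higher and 16.9% lower. The median difference of the 22 was 0.45, against -0.035 over all tested probe sets. In 18 of the 22 the untreated KO and WT arrays did not overlap, as in 71.1% of all tested probe sets. Left out of the count, the probe sets whose name ends in _x_at, which can hybridise to related genes, took 10 of the 22 with them, and 7 higher and 1 lower of 12 were left.

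With 100 mM ethanol in both genotypes, the heavy and light chain genes stood higher in KO. H2-K1, H2-D1 and B2m were called higher, Psmb10 was called lower, and the other 6 genes did not pass on their brightest probe set. Over the 22 probe sets, 11 were called higher and 1 lower, of 14% higher and 15.1% lower over all tested probe sets. The median was 0.37, against -0.047 over all. Without the _x_at probe sets, 4 higher and 1 lower of 12 were left. With array B of both ethanol groups taken as untreated, 5 were higher and 1 lower, while over all probe sets the share called fell from 29.1% to 6.9%. In 17 of the 22 the ethanol KO and WT arrays did not overlap, as in 60.9% of all.

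**Figure D1:**
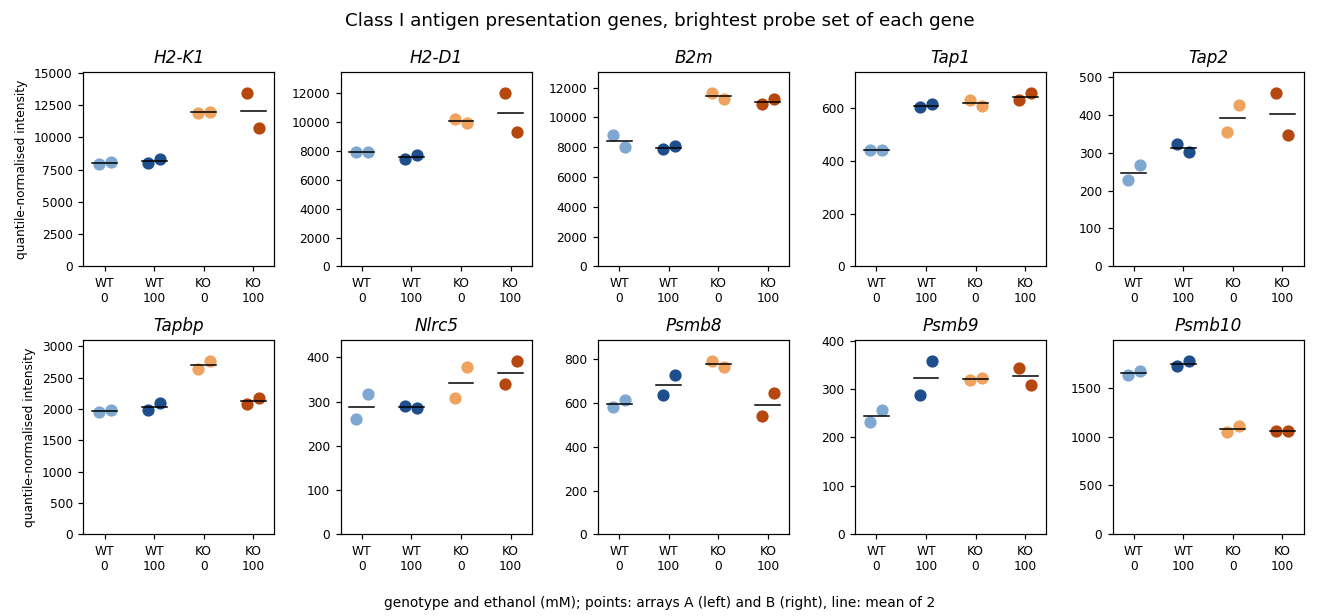
Quantile-normalised intensity (vertical axis, linear, from 0) of the brightest probe set of each of the 10 genes on every array, by genotype and ethanol concentration. Each point is 1 array and each line the mean of 2. H2-K1, H2-D1 and B2m lie higher on all 4 KO arrays than on all 4 WT arrays, and Psmb10 lies lower on all 4.

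The heavy chains, which bind the peptide, were among the brightest probe sets on the array. The brightest H2-K1 probe set, 1425336_x_at, read 7940 and 8070 in WT without ethanol, 7990 and 8350 in WT with ethanol, 11900 and 12000 in KO without ethanol, and 13400 and 10700 in KO with ethanol (array A, then B). All 4 KO arrays lay above all 4 WT arrays. The KO minus WT difference was 0.58 (SE 0.0933, limma adjusted p = 0.0014), a 1.49-fold higher level, without ethanol and 0.55 (adjusted p = 0.0021) with it. Both calls held without each array in turn. The second H2-K1 probe set, 1451931_x_at, gave 0.52 in both comparisons (adjusted p = 3e-04 and 0.00035).

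The brightest H2-D1 probe set, 1425545_x_at, read 7960 and 7940 in WT without ethanol, 7450 and 7700 in WT with ethanol, 10200 and 9940 in KO without ethanol, and 12000 and 9340 in KO with ethanol. Again every KO array lay above every WT array. The difference was 0.34 (SE 0.101, limma adjusted p = 0.028) without ethanol and 0.48 (adjusted p = 0.0065) with it. The untreated call was lost without any 1 of 5 arrays: WT untreated A (adjusted p = 0.11), WT untreated B (0.11), WT ethanol B (0.051), KO untreated A (0.14) and KO untreated B (0.099), where the difference stayed between 0.31 and 0.36. It was also lost with no filter on dim probe sets (adjusted p = 0.056) and without limma's variance trend (0.12). The ethanol call held without each array in turn, at 0.29 without KO ethanol A to 0.69 without KO ethanol B and an adjusted p of up to 0.05, and was lost without the variance trend (0.48, adjusted p = 0.052). Of the other tested H2-D1 probe sets, 3 were called in both comparisons. One of them, 1426324_at, carries no cross-hybridisation mark in its name and read 239 and 260 in WT without ethanol, 248 and 293 in WT with ethanol, 417 and 433 in KO without ethanol, and 533 and 538 in KO with ethanol (lower value first). Its difference was 0.73 (SE 0.12, adjusted p = 0.0015) without ethanol and 0.95 (adjusted p = 0.00043) with it, and both calls held without each array in turn. The second was 0.83 and no longer called (adjusted p = 0.077) with array B of both ethanol groups taken as untreated. Another of the called ones, 1451683_x_at, was at 0.71 with ethanol, and at 0.39 with those B arrays taken as untreated. The remaining 3 H2-D1 probe sets were not called, at 0.51, 0.46 and -0.27 without ethanol.

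The class I heavy chain genes are close copies of one another, and how far each probe set reads its own gene alone was not tested. The H2-K1 and H2-D1 probe sets may share signal with each other and with the H2-Q and H2-T genes. They did not all move alike. With ethanol in KO cells, H2-K1 probe set 1427746_x_at rose from 5010 and 5010 to 8470 and 7870 (log2 difference 0.70, limma adjusted p = 0.0041), while 1425336_x_at differed by 0.00 and 1451931_x_at by 0.05. That rise was 0.54 and not called (adjusted p = 0.18) with array B of both ethanol groups taken as untreated. The KO minus WT difference of 1427746_x_at with ethanol was 0.58 (limma adjusted p = 0.0062), and 0.42 with those B arrays taken as untreated. In WT cells ethanol took 1427746_x_at from 4500 and 4070 to 6310 and 4690 (log2 difference 0.35, limma adjusted p = 0.15). With the spike-in class as a term this WT difference was called (0.35, limma adjusted p = 0.041), and with both B ethanol arrays left out it was 0.58. The difference between the ethanol effects in KO and WT was 0.36 for this probe set (limma adjusted p = 0.25). The probe set that lists both genes, 1424948_x_at, read 2980 and 3780 in WT without ethanol, 4650 and 3810 in WT with ethanol, 4880 and 4010 in KO without ethanol, and 10900 and 11200 in KO with ethanol. The ethanol KO arrays stood apart from the other 6. Its difference between KO and WT was 1.39 (SE 0.135, adjusted p = 8.6e-05) with ethanol, and 1.23 (adjusted p = 0.19) with those B arrays taken as untreated. Without ethanol it was 0.40 (adjusted p = 0.049), a call lost without WT untreated A (0.22, adjusted p = 0.33) or KO untreated A (0.25, adjusted p = 0.31). It was also lost with those B arrays taken as untreated (0.78, adjusted p = 0.097), and at 0.38 to 0.40 with the replicate letter (adjusted p = 0.056) or the spike-in class (0.088) as a term, with no filter (0.087), with incomplete probe sets kept (0.39, 0.082) and without the variance trend (0.14). H2-K1 probe set 1450534_x_at was at 0.91 (adjusted p = 0.072) without ethanol and 1.25 (adjusted p = 0.024) with it. The first was called without WT untreated A (1.33, adjusted p = 0.036), WT ethanol A (0.91, 0.041) or WT ethanol B (0.90, 0.04), and the second was lost without WT ethanol B (0.75, 0.17) or KO ethanol A (0.93, 0.12), without the variance trend (1.25, 0.079) and with the B ethanol arrays taken as untreated (1.08, 0.11). Without ethanol 1450534_x_at was also called with the replicate letter (0.91, limma adjusted p = 0.0063) or the spike-in class (1.32, 0.00013) as a term. That untreated difference was 1.08 with the B ethanol arrays taken as untreated and 0.90 with them left out. The H2-K1 probe set that also lists H2-Q5, 1451593_at, was dim and went the other way without a call (-0.19 and -0.58).

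B2m, the light chain shared by all class I molecules, is a single gene on chromosome 2, outside the MHC. Its brightest probe set, 1449289_a_at, read 8820 and 7990 in WT without ethanol, 7880 and 8060 in WT with ethanol, 11600 and 11200 in KO without ethanol, and 10900 and 11200 in KO with ethanol. All KO arrays lay above all WT arrays. The difference was 0.44 (SE 0.0649, limma adjusted p = 0.00085), or 1.36-fold, without ethanol and 0.47 (adjusted p = 0.00072) with it. The other B2m probe set, 1452428_a_at, gave 0.38 (adjusted p = 0.0038) and 0.40 (adjusted p = 0.0034). All 4 calls held without each array in turn. With the B ethanol arrays taken as untreated, the ethanol call of 1452428_a_at was lost (0.50, adjusted p = 0.064).

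The size of these rises in untreated cells depended on how the arrays were scaled. With scaling to the trimmed mean in place of quantile normalisation, the untreated KO minus WT difference was 1.21 for H2-K1, 0.88 for H2-D1 and 1.06 for B2m. The median over all tested probe sets was -0.036 under that scaling and -0.035 after quantile normalisation. Several bright hepatocyte markers moved as far with the scaling. Without ethanol Alb went from 0.16 to 1.04, Ttr from 0.21 to 1.10, and the probe set of Serpina1a and Serpina1d from 0.01 to 0.73. Of 10 hepatocyte markers, 2 were called higher and 6 lower in untreated KO after quantile normalisation, and 6 higher and 4 lower under trimmed-mean scaling, where Fgb, a fibrinogen chain, turned from -0.18 to 0.56 and Apoa1, an apolipoprotein, from -0.39 to 0.37. Fgb, Alb, Ttr and Serpina1a were named after their values were seen. Called lower under both scalings were Hnf4a, a hepatocyte transcription factor (-1.36 and -1.40 under trimmed-mean scaling), the secreted protein Ahsg (-1.34 and -1.13), the urea cycle enzyme Cps1 (-0.61 and -0.51) and tyrosine aminotransferase, Tat (-0.55 and -0.58). For the 7 dimmer class I genes the untreated difference moved by at most 0.05. With ethanol, the trimmed-mean values were 0.67, 0.58 and 0.51. The direction was the same under both scalings for every called difference between the genotypes on the brightest probe sets.

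**Figure D2:**
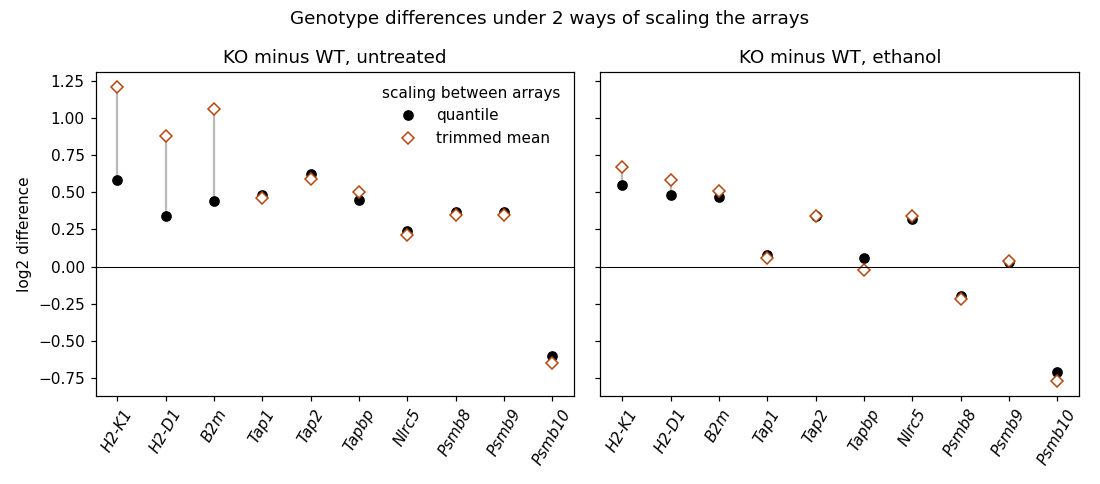
Log2 difference of KO minus WT (vertical axis) for the brightest probe set of each gene without ethanol (left) and with it (right), after quantile normalisation (filled circles) and after trimmed-mean scaling (open diamonds). The gap between the scalings is widest for H2-K1, H2-D1 and B2m in untreated cells, where 0.58, 0.34 and 0.44 become 1.21, 0.88 and 1.06.

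The transporter genes were higher in untreated KO cells. Tap1, 1 chain of the peptide transporter, read 442 and 443 in WT without ethanol, 605 and 616 in WT with ethanol, 632 and 610 in KO without ethanol, and 634 and 657 in KO with ethanol on probe set 1416016_at. Untreated WT stood below the other 3 groups, which lay between 605 and 657. The KO minus WT difference was 0.48 (SE 0.0906, limma adjusted p = 0.0034) without ethanol and 0.08 (adjusted p = 0.57) with it. With array B of both ethanol groups taken as untreated, the untreated difference was 0.35 and no longer called (adjusted p = 0.13). The 3 other Tap1 probe sets were dim, none above 30.9 on any array.

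Tap2, the partner chain, read 228 and 267 in WT without ethanol, 323 and 301 in WT with ethanol, 355 and 426 in KO without ethanol, and 456 and 347 in KO with ethanol. All KO arrays lay above all WT arrays, with a wider spread within groups than for Tap1. The difference was 0.62 (SE 0.16, limma adjusted p = 0.015) without ethanol and 0.34 (adjusted p = 0.15) with it. The untreated call was lost without WT untreated A (0.52, adjusted p = 0.11) or KO untreated B (0.50, adjusted p = 0.12).

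Tapasin had a pair of tested probe sets, and they differed. The brighter, 1421812_at, read 1950 and 1980 in WT without ethanol, 1980 and 2090 in WT with ethanol, 2630 and 2760 in KO without ethanol, and 2080 and 2170 in KO with ethanol, so that untreated KO alone stood high. The dimmer, 1450378_at, read 323 and 386, 203 and 192, 443 and 469, and 580 and 504 in the same groups, and ethanol WT was lowest. KO minus WT without ethanol was 0.45 (SE 0.0705, limma adjusted p = 0.0011) on the brighter and 0.36 (adjusted p = 0.062) on the dimmer. With ethanol it was 0.06 (adjusted p = 0.57) on the brighter and 1.39 (SE 0.129, adjusted p = 6.9e-05) on the dimmer. With array B of both ethanol groups taken as untreated, the brighter gave 0.32 (adjusted p = 0.065) without ethanol and the dimmer 1.45 (adjusted p = 0.059) with it. A sign of RNA length moved with the groups: the ratio of the 3′ to the 5′ control probe set of Pcx was 10 and 16.8 in WT without ethanol, 26.7 and 44.5 in WT with ethanol, 10.6 and 8.69 in KO without ethanol, and 4.91 and 5.45 in KO with ethanol. The same ratio moved less for Gapdh, from 0.771 to 0.977 over the arrays, and for Actb, from 1.15 to 1.62. For each of these genes it was highest on the WT arrays with ethanol. The part of RNA length in the difference between the tapasin probe sets, or in the other group differences given here, was not tested.

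The immunoproteasome subunits did not move as a group. Psmb8, the inducible partner of Psmb5, read 581 and 614 in WT without ethanol, 638 and 728 in WT with ethanol, 791 and 764 in KO without ethanol, and 541 and 646 in KO with ethanol. Untreated KO was highest and did not overlap with any other group. The difference was 0.37 (SE 0.114, limma adjusted p = 0.032) without ethanol and -0.20 (adjusted p = 0.22) with it. The untreated call was lost without any 1 of the 4 untreated arrays: WT A (0.33, adjusted p = 0.17), WT B (0.41, 0.087), KO A (0.35, 0.15) and KO B (0.40, 0.10). It was also lost under trimmed-mean scaling (0.35, adjusted p = 0.059) and with array B of both ethanol groups taken as untreated (0.19, adjusted p = 0.34). No filter (0.37, adjusted p = 0.053), no variance trend (0.37, 0.081) and the spike-in class as a term (0.29, 0.053) ended it too.

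Psmb9, which shares its start region with Tap1, read 232 and 257 in WT without ethanol, 287 and 357 in WT with ethanol, 319 and 322 in KO without ethanol, and 344 and 309 in KO with ethanol. As for Tap1, untreated WT lay below the other groups. The difference without ethanol was 0.37 (SE 0.139, 95% interval 0.06 to 0.69, limma adjusted p = 0.069), and with ethanol it was 0.03 (95% interval -0.29 to 0.34, adjusted p = 0.91). The untreated difference was called when KO ethanol A or KO ethanol B was left out (0.38, adjusted p = 0.047, and 0.37, adjusted p = 0.045) or both B ethanol arrays were (0.37, adjusted p = 0.033).

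Psmb10, the inducible partner of Psmb7, went the other way. It read 1630 and 1670 in WT without ethanol, 1720 and 1770 in WT with ethanol, 1050 and 1110 in KO without ethanol, and 1060 and 1060 in KO with ethanol. All 4 KO arrays lay below all 4 WT arrays, and the arrays within a group were close. The difference was -0.60 (SE 0.0741, limma adjusted p = 3e-04), a 1.52-fold lower level, without ethanol and -0.71 (adjusted p = 0.00013), 1.64-fold lower, with it. Both calls held without each array in turn, and the difference was -0.65 and -0.77 under trimmed-mean scaling. Psmb10, like Nlrc5, lies on chromosome 8, apart from Psmb8 and Psmb9 in the MHC.

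Nlrc5, the activator of class I genes, read 260 and 316 in WT without ethanol, 290 and 286 in WT with ethanol, 307 and 379 in KO without ethanol, and 339 and 391 in KO with ethanol. The KO and WT arrays overlapped without ethanol and not with it. The differences were 0.24 (SE 0.149, limma adjusted p = 0.26) and 0.32 (adjusted p = 0.14), neither called.

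**Figure D3:**
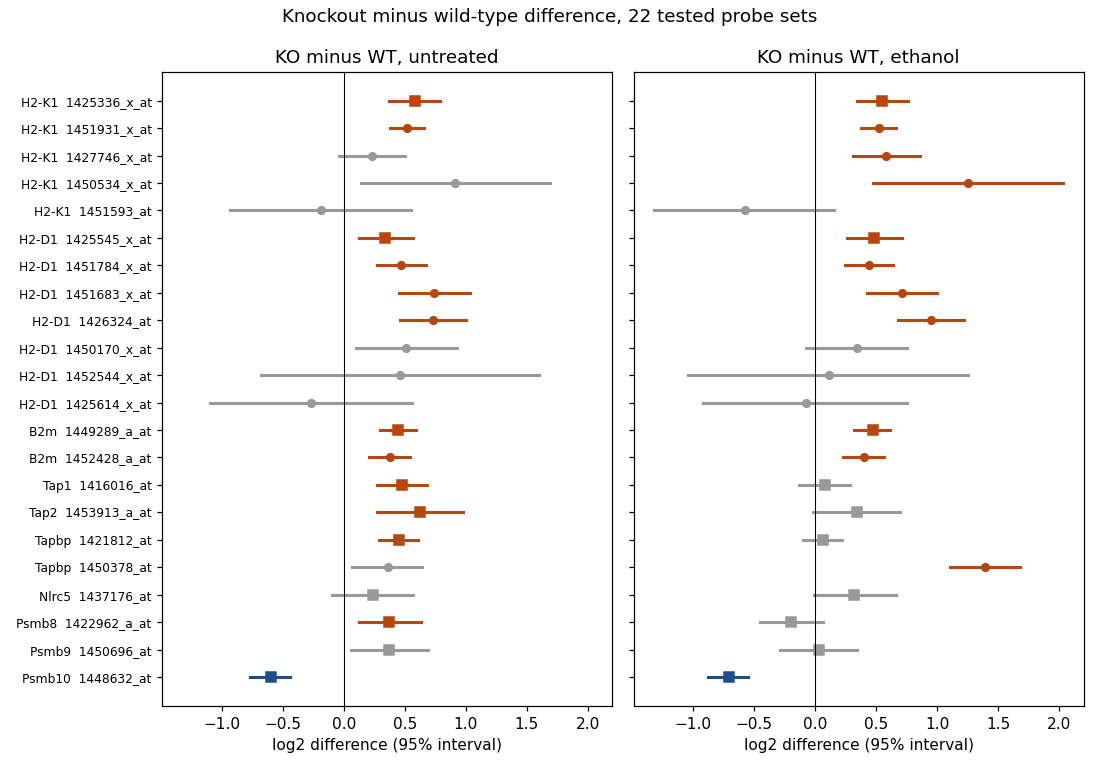
Log2 difference of KO minus WT (horizontal axis) with its 95% interval for all 22 tested probe sets, without ethanol (left) and with ethanol (right). Squares mark the brightest probe set of a gene and circles the others, orange called higher, blue called lower and grey not called. Psmb10 is the 1 probe set called lower in each panel, and Tap1, Tap2, brighter Tapbp and Psmb8 are called on the left only.

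The correlation between members over the 8 arrays did not set the chain genes cleanly apart from the other genes. Log2 values of H2-K1 and H2-D1 correlated at r = 0.97, those of H2-K1 and B2m at 0.92, and those of Tap1 and Psmb9 at 0.87. B2m and Psmb10 correlated at -0.98. Tap2 correlated at 0.88, 0.81 and 0.70 with H2-K1, H2-D1 and B2m, and at 0.79 with Tap1. Tapbp correlated at 0.67, 0.53 and 0.73 with H2-K1, H2-D1 and B2m, at 0.48 with Tap1 and at 0.78 with Psmb8. The 8 arrays share the group differences and the brightness split described above, so these are descriptions and carry no p. The probe sets most like B2m over the 8 arrays were those of Bcl10 (r = 0.995), Mup10 (0.993) and Acss2 (0.991). The most like H2-K1 were Akap13 (0.989), Rnf217 (0.987) and Sav1 (0.987), the most like Tap1 were Slc35e3 (0.992), Fmo5 (0.982) and Herpud1 (0.963), and the most like Psmb8 were Hagh (0.99), Uqcrc2 (0.987) and Asxl2 (0.986).

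Ethanol itself was called for few members. In WT cells 1 probe set was called higher and 1 lower of the 22, of 1.67% higher and 3.91% lower over all tested probe sets. Tap1 rose by 0.45 (SE 0.0906, limma adjusted p = 0.022), from 442 and 443 to 605 and 616. The dimmer Tapbp probe set fell by 0.79 (SE 0.129, adjusted p = 0.0082). The Tap1 call was lost without any 1 of the 4 WT arrays or the 2 untreated KO arrays (adjusted p from 0.056 to 0.14, difference from 0.44 to 0.47), and with the B ethanol arrays left out it was 0.44 (adjusted p = 0.058). It was also lost without the variance trend (0.45, adjusted p = 0.083) and with incomplete probe sets kept (0.35, 0.15). The Tapbp call was lost without WT untreated B (-0.66, adjusted p = 0.088), WT ethanol A (-0.83, 0.057) or WT ethanol B (-0.74, 0.07), and without the variance trend (-0.79, 0.051). With array B of both ethanol groups taken as untreated, neither was called (0.28 and -0.48, both adjusted p = 1). Psmb9 and Tap2 stood at 0.37 and 0.32 (adjusted p = 0.18 and 0.33), not called.

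In KO cells 1 member probe set was called higher and 2 lower with ethanol, of 11.4% higher and 10.8% lower over all. The one higher was the H2-K1 probe set 1427746_x_at described above. The brighter Tapbp probe set fell by 0.34 (SE 0.0705, limma adjusted p = 0.009) and Psmb8 by 0.39 (SE 0.114, adjusted p = 0.038). The Tapbp call was lost without KO untreated A (-0.37, adjusted p = 0.05) or KO untreated B (-0.31, 0.084) and without the variance trend (-0.34, 0.067), and the Psmb8 call without any 1 of 6 arrays, namely both untreated WT arrays, WT ethanol B, both untreated KO arrays and KO ethanol A (adjusted p from 0.051 to 0.18). Under trimmed-mean scaling Psmb8 was at -0.38 (adjusted p = 0.058) and B2m was called lower, at -0.63 (adjusted p = 0.0069), against -0.05 after quantile normalisation. The arrays of ethanol KO differed from each other for the heavy chains. H2-K1 read 13400 on A and 10700 on B, and without array B ethanol was called to raise H2-K1 (0.17, adjusted p = 0.023) and H2-D1 (0.26, adjusted p = 0.0044) on their brightest probe sets. Of the 22, 6 were then called in place of 3, and over all probe sets 37.9% in place of 22.2%. With array B of both ethanol groups taken as untreated none of the 22 was called in limma's fit, and 1.92% of all were.

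The difference between the ethanol effects in KO and WT was called for 1 member probe set, higher, and for none lower, of 3.57% higher and 1.78% lower over all. This was the dimmer Tapbp probe set, at 1.03 (SE 0.182, limma adjusted p = 0.014), which fell in WT and stood at 0.24 in KO. It was not called without any 1 of 5 arrays, namely WT untreated B (0.90, adjusted p = 0.067), WT ethanol A (1.07, 0.052), WT ethanol B (0.98, 0.065), KO untreated A (0.99, 0.081) and KO untreated B (1.07, 0.066). Nor was it called without the variance trend (1.03, adjusted p = 0.081) or with the B ethanol arrays taken as untreated (0.77, 0.51). The brighter Tapbp probe set was at -0.39 (adjusted p = 0.054), of the opposite sign. Psmb8 was at -0.57 (adjusted p = 0.074), Tap1 at -0.40 (adjusted p = 0.11) and Psmb9 at -0.35 (adjusted p = 0.33). On their brightest probe set, Tap1, Tap2, Tapbp and Psmb8 passed the genotype test without ethanol and not with it in the fit to all arrays. Without KO ethanol B the genotype difference with ethanol was 0.53 for Tap2 and -0.32 for Psmb8. The dimmer Tapbp probe set passed with ethanol alone. On the brightest probe set the difference between the ethanol effects passed for none of these 4 in the fit to all arrays. Other settings moved the difference between the ethanol effects. The brighter Tapbp difference was called with the replicate letter as a block (-0.39, adjusted p = 0.049), under trimmed-mean scaling (-0.52, 0.046), with the top 30% filter (-0.39, 0.036) and with both B ethanol arrays left out (-0.38, 0.04). Psmb8 was called with those arrays left out (-0.60, adjusted p = 0.032), and without KO ethanol B alone Tapbp (-0.42, 0.015), Psmb8 (-0.70, 0.012) and Tap1 (-0.42, 0.048) were called. For H2-K1, H2-D1, B2m and Psmb10 it was -0.03, 0.14, 0.03 and -0.11, each with an adjusted p of at least 0.58. For H2-D1 it was called, at 0.33 (adjusted p = 0.0093), without KO ethanol B and, at 0.38 (0.012), with both B ethanol arrays left out.

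**Figure D4:**
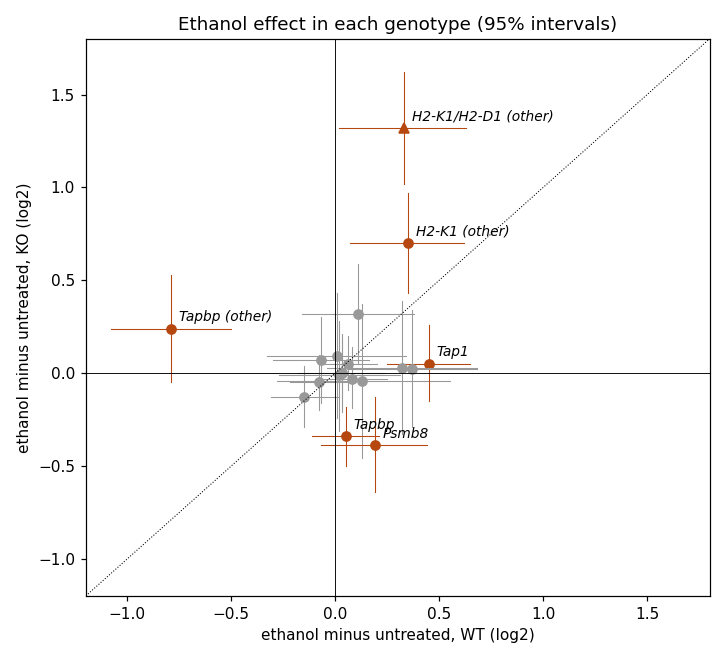
Log2 difference of ethanol minus untreated in WT (horizontal axis) against that in KO (vertical axis), with 95% intervals, for the 19 probe sets with an SE under 0.2 (4 with a larger SE are left out). Orange points were called in at least 1 genotype, grey in neither, the triangle is the probe set that lists both H2-K1 and H2-D1, "other" marks a probe set that is not its gene's brightest, and the dotted line marks equal effects. Most points lie near 0 on both axes, and Tap1 lies to the right at 0.45 in WT and 0.05 in KO.

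The other genes of the pathway were taken from lists of their neighbours in function, 1 probe set per gene. Among other class I heavy chains, KO cells without ethanol had 7 of 15 tested genes higher and 2 lower, with a median of 0.12 (0.53 under trimmed-mean scaling). With ethanol 6 were higher and 1 lower, with a median of 0.30. The probe set of H2-Q6 and H2-Q8 was higher by 1.67 (limma adjusted p = 9.5e-06) and 1.19, that of H2-Q7 and H2-Q9 by 0.96 and 1.08, that of H2-T9, H2-T22 and H2-T10 by 0.63 and 0.32, and that of H2-T23, which also lists a pseudogene, by 0.50 and 0.47. These are the nonclassical relatives of H2-K1, and their probe sets list several genes each. Hfe, a class I-like regulator of iron uptake, was lower in both, with log2 differences of -0.96 and -0.72.

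Of the genes for peptide loading and trimming, 1 of 12 was higher and 4 lower without ethanol (median -0.02), and 1 higher and 5 lower with it (median -0.09). Erap1, which trims peptides in the endoplasmic reticulum, was at 0.63 (limma adjusted p = 0.0018) without ethanol and -0.13 (0.38) with it. Thop1, a cytosolic peptidase, was at -0.91 (adjusted p = 0.0013) and 0.04 (0.85). Sec61a1, a chain of the protein translocation channel, was at -0.59 and -0.46, and the cytosolic aminopeptidase Npepps at -0.54 and -0.76, called in both. Among the proteasome activators and the subunits that the immunoproteasome replaces, 2 of 9 were higher and 3 lower without ethanol, and none higher and 4 lower with it (0 of 9 higher in limma's fit). Psmb5 was at -0.39 and -0.26 and Psmb6 at -0.31 and -0.52, called lower in both, though under trimmed-mean scaling untreated Psmb6 was at -0.23 and not called (adjusted p = 0.13). The activator subunit Psme2 was called higher without ethanol (0.25, adjusted p = 0.027) and lower with it (-0.36, 0.0061). Psmb7, named for its pairing with Psmb10 after its values were seen, was at -0.11 in both and not called, and under trimmed-mean scaling it turned to 0.30 without ethanol (adjusted p = 0.032).

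Among 22 tested regulators of class I genes, 10 were higher and 2 lower in untreated KO (median 0.22), and 8 higher and 1 lower with ethanol (median 0.32). Irf1, an interferon-induced factor that binds the ISRE, read 489 and 417 in WT without ethanol, 489 and 498 in WT with ethanol, 1080 and 988 in KO without ethanol, and 1140 and 1040 in KO with ethanol. All KO arrays lay above all WT arrays, by 1.16 (SE 0.106, limma adjusted p = 6e-05) and 1.12 (adjusted p = 7.8e-05). Ifngr2, a chain of the interferon gamma receptor, was at 0.82 and 1.74. Irf9 and Stat2, partners in the complex that acts after type I interferon, were at 0.95 and 0.67 and at 0.64 and 1.01. All 6 of these values were called, under trimmed-mean scaling too. Rela, a subunit of NF-kappaB, was at 0.17 (adjusted p = 0.11) and 0.55 (adjusted p = 0.00051). The regulators called lower were Rfxap (-0.49, limma adjusted p = 0.01) and Ifnar2 (-0.44, 0.024) without ethanol and Ezh2 (-0.83, 0.0028) with it. In the other comparison Rfxap was at -0.21, Ifnar2 at 0.27 and Ezh2 at -0.13, none called. Ifngr1 was at -0.13 and 0.20, not called. These genes were named after their values were seen.

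**Figure D5:**
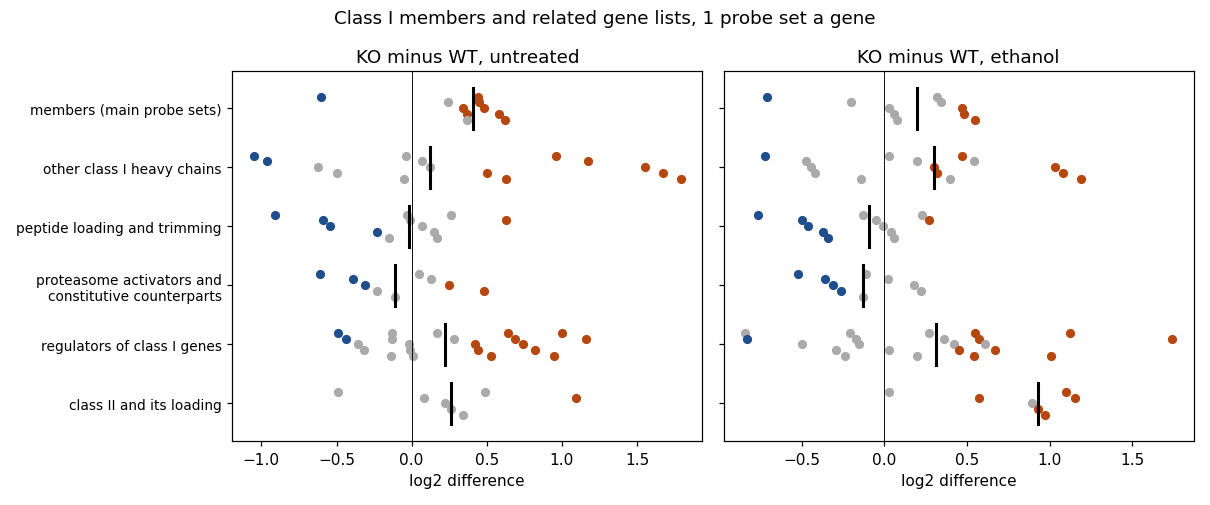
Log2 difference of KO minus WT (horizontal axis) for the 10 members and the tested genes of 5 related lists, without ethanol (left) and with ethanol (right). Each point is 1 gene, orange called higher, blue called lower, grey not called, and the black bar is the list's median. Of the members, 9 lie right of 0 in the left panel, and the loading and proteasome lists spread to both sides.

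Cells of other types could be present in a hepatocyte preparation, and in bulk samples fewer cells of a type and less RNA per cell cannot be told apart. Class II genes, markers of professional antigen-presenting cells, had 1 of 7 tested higher and none lower in untreated KO, and 5 higher and none lower with ethanol. Their summed level over 10 probe sets was 814 to 844 in WT without ethanol, 711 to 781 in WT with ethanol, 1020 to 1110 in KO without ethanol and 1250 to 1600 in KO with ethanol. H2-Aa was at 1.09 and 1.10 (called) and Cd74 at 0.49 (limma adjusted p = 0.069) and 1.15 (adjusted p = 0.0015). Of 11 tested Kupffer cell and macrophage markers, 1 was higher (Cd68, 1.50 and 1.63) in both comparisons, and 3 were lower without ethanol and 1 with it. The scavenger receptor Marco was lower in both (-0.98 and -1.27), and the receptor Csf1r (-0.65) and the lysozyme Lyz2 (-0.55) were lower without ethanol. The summed level over 12 probe sets was 1290 to 1390, 1450 to 1480, 1910 to 1980 and 2490 to 2820 in the same order of groups. The higher sums in KO came from Cd68. It read 411 and 450 in WT and 1240 and 1260 in KO without ethanol, and the other 11 probe sets summed to 876 to 942, 911 to 911, 677 to 727 and 860 to 963. Of the defining markers, Adgre1, a macrophage surface antigen, was at -0.55 and -0.17 and Clec4f, a Kupffer cell receptor, at -0.19 and 0.05, none called. Under trimmed-mean scaling Adgre1 with ethanol turned to 0.02.

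Of 12 T and NK cell markers, 2 were bright enough to test and neither was called. The 12 summed to 167 to 225, 161 to 168, 134 to 146 and 162 to 192. Cd3d, a CD3 chain of the T cell receptor complex, stood between 0.967 and 4.29 on all 8 arrays. None of 8 B cell and dendritic cell markers was bright enough to test, and their sums were 92.1 to 101, 109 to 166, 124 to 139 and 116 to 133. Of 8 endothelial markers 1 was higher in each comparison (sums 485 to 561, 635 to 636, 668 to 794 and 641 to 665). Of 5 tested stellate cell and cholangiocyte markers, Dcn and Sox9 were higher in both (sums over 10 probe sets 649 to 686, 481 to 616, 1460 to 1550 and 1130 to 1330). Without Dcn and Sox9 the other 8 summed to 236 to 276, 128 to 263, 165 to 183 and 214 to 271, lower in KO without ethanol and overlapping with it. Of 10 hepatocyte markers none was higher and 4 were lower with ethanol (counts without ethanol are given above, sums 88900 to 91000, 94600 to 95000, 79800 to 80100 and 82500 to 85300). The part of these cells, or of the hepatocytes' own state, in the class I differences was not tested.

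The bioC spike-in over the bioB spike-in split the arrays at 2 into a lower and a higher class, which the labels do not name as a batch. Array A of each group except KO without ethanol was in the lower class, and the other 5 arrays were in the higher class. Within the higher class the untreated KO minus WT difference was 0.57 for H2-K1, 0.34 for H2-D1, 0.51 for B2m, 0.47 for Tap1, 0.52 for Tap2, 0.44 for Tapbp, 0.33 for Psmb8 and -0.62 for Psmb10. With ethanol it was 0.74 in the lower and 0.36 in the higher class for H2-K1, 0.69 and 0.28 for H2-D1, 0.47 and 0.47 for B2m, and -0.70 and -0.73 for Psmb10. Each within-class value rests on 1 or 2 arrays a group and has no test.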

How the data were processed

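Hybridised biotin-labelled cRNA from total RNA gave 1 deposited linear intensity per probe set and array. For the software that summarised the probes, any scaling and a genome build: not given in the sources used here. Groups follow the titles. On ethanol WT array B, 5410 values were unusable, none on a member probe set, and the 39627 complete probe sets were kept. Intensities were quantile normalised and taken as log2(intensity + 16). The brighter 50% by mean, 19814 probe sets, were fitted with limma 3.58.1 in R 4.3.3 on all 8 arrays (4 group means, intensity trend), with Benjamini-Hochberg adjustment over all of them in each of 5 contrasts. The number of arrays limits the precision: there were 4 residual and 5.43 prior degrees of freedom.

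Symbols came from the platform table. Of 141 list genes 131 were measured. All members were named, and of each other list up to 4 genes with the smallest adjusted p in each KO minus WT comparison, though not every such gene is printed. Fgb, Alb, Ttr, Serpina1a, Psmb7, Rfxap, Ifnar2, Ezh2 and Ifngr1 were added after their values were seen, and Adgre1, Clec4f and Cd3d as defining markers. The members and lists were chosen with earlier results of these data known. The fit was tested on simulated data. Alternatives were trimmed-mean scaling, an offset of 64, no filter or the top 30%, no variance trend, the replicate letter or spike-in class as a term, the B ethanol arrays left out or counted as untreated, incomplete probe sets kept, and each array left out. Leaving out _x_at probe sets was added after the data were seen.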

Additional observations from a re-analysis of the deposited data

Results flagged for a closer look

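The ethanol effect differed between KO and WT cells on the dimmer Tapbp probe set, 1450378_at, by 1.03 on the log2 scale (limma adjusted p = 0.014 for the difference itself), with -0.79 in WT and 0.24 in KO. It differed on 1424948_x_at, the probe set that lists H2-K1 and H2-D1, by 0.99 (SE 0.191, limma adjusted p = 0.02), with 0.33 in WT and 1.32 in KO. This second difference was not called without WT untreated B (0.84, adjusted p = 0.068), WT ethanol B (0.87, 0.075), KO untreated A (1.10, 0.055) or KO untreated B (0.82, 0.11), nor under trimmed-mean scaling (0.81, adjusted p = 0.071). Without limma's variance trend neither was called, at adjusted p = 0.081 and 0.12. With array B of both ethanol groups taken as untreated they were 0.77 (adjusted p = 0.51) and 0.45 (adjusted p = 0.79). The first was also lost without any 1 of 5 arrays, given above. Groups of 2 arrays are too small for a check on single outlying arrays.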

How the results depend on the processing

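The counts of called member probe sets for KO minus WT were 13 without ethanol and 12 with it, and without each array in turn they ran from 10 to 16 and from 11 to 14. Of the 13 and 12, 10 and 11 were called without every array, and 12 and 11 under trimmed-mean scaling. With _x_at probe sets left out they were 8 and 5, and with array B of both ethanol groups taken as untreated the second was 6. The 2 calls for ethanol in WT became 0 without the variance trend, 0 with those B arrays counted as untreated and 1 with incomplete probe sets kept, and 0 to 3 without each array. The 3 calls for ethanol in KO became 1 without the variance trend, 6 with the B ethanol arrays left out and 0 with them counted as untreated, and 1 to 6 without each array. The 1 call for the interaction became 2 under trimmed-mean scaling, 2 with the top 30% filter, 0 without the variance trend, 4 with the B ethanol arrays left out and 0 with them counted as untreated, and 0 to 5 without each array. The cause of these moves was not tested. The replicate letters were not taken to pair the samples, since not every correlation of same-letter deviations was over 0.1: they were 0.20 to 0.30 among WT without ethanol, WT with ethanol and KO with ethanol, and 0.02 to 0.03 with KO without ethanol. With the replicate block the counts were 14, 12, 2, 3 and 2 in the same order, the last against 1. Of 35 called differences over the 22 probe sets and the one listing 2 members, 30 were called under trimmed-mean scaling, 35 with the offset of 64, 31 with no filter, 23 without the variance trend and 16 with array B of both ethanol groups taken as untreated. H2-D1 probe set 1451784_x_at, at 0.00 for ethanol in KO, turned to a called 0.16 with the B ethanol arrays left out and ran from -0.15 to 0.15 without each array in turn, 0.15 being without array B of KO with ethanol.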
